A study of Homo sapiens with 3 samples.

Results

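The classical cadherins and the non-clustered protocadherins, with the giant FAT, Dachsous and CELSR cadherins, were examined in SH-SY5Y, a human neuroblastoma cell line of sympathetic lineage. Members were the protein-coding genes of GENCODE release 29, outside chromosome Y, whose symbol is CDH or PCDH followed only by a number, plus the FAT, DCHS and CELSR genes. This gave 43 genes of the 59152 gene names in the table, which hold 19680 protein-coding genes. The RNA came from 3 separate flasks of adherent cells, for which the labels name no treatment or genetic change, grown with 10% fetal bovine serum and taken at about 60% confluency. Each flask gave 1 stranded mRNA library from 500 ng of RNA, read as single reads of 50 bases. There is 1 group of 3 libraries and no second condition, so genes were compared with a fixed level and with each other inside the same libraries. The replicates are cultures of 1 cell line, and every error and p-value measures only the spread between these flasks.

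Cadherins are cell-surface proteins whose repeated extracellular domains bind calcium and hold neighbouring cells together. Classical cadherins pair mostly with the same cadherin on the next cell and anchor to actin through catenins, and which of them a cell makes is known to sort cells into tissues. Non-clustered protocadherins, many of them made in the nervous system, adhere weakly and signal to the actin cytoskeleton, while FAT, Dachsous and CELSR proteins are known for aligning cells in a tissue plane. In neural crest cells, from which neuroblastoma derives, a change in the set of cadherins accompanies the departure from the neural tube.

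The deposited values were FPKM, a fragment count divided by transcript length and by the size of the library, so levels of different genes can be set side by side. A gene was called above or below 1 FPKM by limma's moderated test on log2(FPKM + 0.1). The threshold was a Benjamini-Hochberg adjusted p under 0.05 over all 31736 genes tested. The SE given with a limma p is moderated too, as each gene's spread between flasks is drawn toward that of all genes tested. For steady genes it is therefore larger than their own spread would give, as in CDH2, with a log2 SD of 0.029 and an SE of 0.0658. Depth, estimated from the step size of low values, was about 21500000, 28500000 and 43500000 reads in replicates 1, 2 and 3. For a transcript of 1 kb effective length, 3 reads then amount to 0.14 FPKM in replicate 1, 0.105 in replicate 2 and 0.069 in replicate 3. This floor takes in counting error alone, and it is lower on the long cadherin transcripts. Reads and floors of members were estimated on the longest coding transcript of each. Where shorter transcripts carry the signal, the reads are overstated and the floor is too low. All 12 markers of SH-SY5Y identity were called above, led by STMN2 at 2410 FPKM and UCHL1 at 604 FPKM.

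The delta-2 protocadherins, the subfamily known for recruiting the actin-regulating WAVE complex, held both high and very low genes. PCDH18 and PCDH17 were among the 7 highest genes of the set, while PCDH8, PCDH10 and PCDH19 all lay under 0.1 FPKM. The 250 bases before the RefSeq transcription start are shown for the 4 of these 5 genes that have a RefSeq promoter entry (GRCh38.p14). By the GENCODE starts, the PCDH17 window ends 66 bases before the gene and the PCDH8 window takes in 1 base of it. The windows let the promoters of a high pair and of a low pair be read side by side. They lie at chr4:137532495-137532744 (minus strand, PCDH18), chr13:57631494-57631743 (plus strand, PCDH17), chr13:52848641-52848890 (minus strand, PCDH8) and chrX:100410274-100410523 (minus strand, PCDH19). Sequences run 5′ to 3′ on the gene's strand, with each CG dinucleotide in capitals.
PCDH18: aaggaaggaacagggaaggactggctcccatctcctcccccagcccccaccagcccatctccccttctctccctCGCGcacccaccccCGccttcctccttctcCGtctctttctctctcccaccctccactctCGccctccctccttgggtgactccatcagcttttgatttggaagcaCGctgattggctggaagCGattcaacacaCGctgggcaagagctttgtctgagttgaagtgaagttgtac
PCDH17: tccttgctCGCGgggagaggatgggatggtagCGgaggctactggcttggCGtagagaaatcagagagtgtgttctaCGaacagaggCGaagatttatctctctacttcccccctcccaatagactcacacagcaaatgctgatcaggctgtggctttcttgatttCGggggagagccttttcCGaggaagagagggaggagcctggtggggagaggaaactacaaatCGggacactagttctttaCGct
PCDH8: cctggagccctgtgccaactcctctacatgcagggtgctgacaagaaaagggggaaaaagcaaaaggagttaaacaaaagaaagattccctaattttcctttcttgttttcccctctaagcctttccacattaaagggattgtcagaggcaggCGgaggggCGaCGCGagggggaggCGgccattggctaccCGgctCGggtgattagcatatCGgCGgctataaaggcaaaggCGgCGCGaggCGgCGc
PCDH19: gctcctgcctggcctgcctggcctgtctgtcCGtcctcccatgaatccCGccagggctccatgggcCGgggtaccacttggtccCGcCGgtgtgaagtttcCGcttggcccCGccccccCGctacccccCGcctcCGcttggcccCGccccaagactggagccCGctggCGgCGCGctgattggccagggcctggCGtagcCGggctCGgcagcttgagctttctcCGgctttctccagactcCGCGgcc

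The PCDH18 window held 8 CG dinucleotides and the PCDH17 window 10. Those of the low genes held 14 in PCDH8 and 21 in PCDH19. The GC content was 58.4% for PCDH18, 52.8% for PCDH17, 54.8% for PCDH8 and 72.0% for PCDH19. Over 35116 RefSeq promoter windows of the same length, the median was 11 CG dinucleotides and 58% GC, and 93.9% of the windows held at least 1 CG. In these 4 windows the high pair thus had fewer CG dinucleotides than the low pair, which describes 4 sequences and tests nothing. No measurement of methylation or binding is part of these data.

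PCDH18 (chromosome 4, 137518918 to 137532494) reached 14.3, 11.4 and 14.9 FPKM in replicates 1, 2 and 3. PCDH17 (chromosome 13, 57631810 to 57729311), a protocadherin studied at synapses and in axon growth, reached 10.6, 11.6 and 12.4 FPKM. Both exceeded 10 FPKM in every flask, and PCDH18 was lowest in replicate 2 while PCDH17 was not. Their log2 levels over 1 FPKM were 3.62 (SE 0.113) and 3.40 (SE 0.0817), with limma adjusted p of 9.77e-05 and 5.54e-05. PCDH10, an axon-growth protocadherin in mouse, had 0.042, 0.040 and 0.058 FPKM. PCDH19, whose mutation causes an X-linked epilepsy, had 0.024, 0.027 and 0.018 FPKM. Both lay far from the high pair in each flask, although each was carried by an estimated 5 or more reads in every library, over the 3-read floor. PCDH8, known as an activity-induced gene in rat neurons, had 0.019 FPKM in replicate 1, was listed at 0 in replicate 2 and had 0.085 FPKM in replicate 3. PCDH17 and PCDH18 held 99.6 ± 0.159% of the summed FPKM of the 5 delta-2 genes (SD, n = 3).

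The PCDH17 value carries a limit. The antisense gene AL445288.1, on the opposite strand, shares 654 exonic bases with PCDH17 and was listed at 11.7 ± 1.42 FPKM, close to PCDH17 itself at 11.6 ± 0.888 FPKM (SD, n = 3). Whether reads were counted by strand is a setting not given in the sources used here, so reads from the pair may not have been told apart. No other gene among the deposited values shared exonic bases with PCDH18.

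Across the whole set, 12 of the 38 members tested were called above 1 FPKM (31.6%), against 45.5% of all genes tested and 70.6% of the protein-coding genes tested. Another 23 members were called below (60.5%), against 43.7% of all genes and 24.6% of protein-coding genes. CDH8, FAT3 and PCDH9 were called neither. The other 5 members, CDH5, CDH9, CDH12, CDH16 and CDH19, were listed at 0 in all 3 libraries and were not tested, since a listed 0 may stand for no reads or for an estimate that failed. The median over the 43 genes was 0.138 FPKM, beside 5.4 FPKM over all protein-coding genes.

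Most members lay at low levels. Of the 43 members, 10 had a mean of at least 5 FPKM, 4 had 1 to 5 FPKM and 29 had less than 1 FPKM. A mean of 0.5 to 5 FPKM was found for 14% of members and 14.7% of protein-coding genes. At least 5 FPKM was reached by 23.3% of members, against 50.8% of protein-coding genes. None of the members exceeded 50 FPKM, which 12.4% of protein-coding genes did. Members were more frequent than protein-coding genes in the ranges below 1 FPKM other than 0. These held 6.98% of members and 2.81% of protein-coding genes at 0 to 0.01 FPKM, 25.6% of members and 8.98% of protein-coding genes at 0.01 to 0.1 FPKM, and 23.3% of members and 11.2% of protein-coding genes at 0.1 to 1 FPKM. The share listed at 0 was 11.6% of members and 14.9% of protein-coding genes, a difference of the size of 1 or 2 members.

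**Figure D1:**
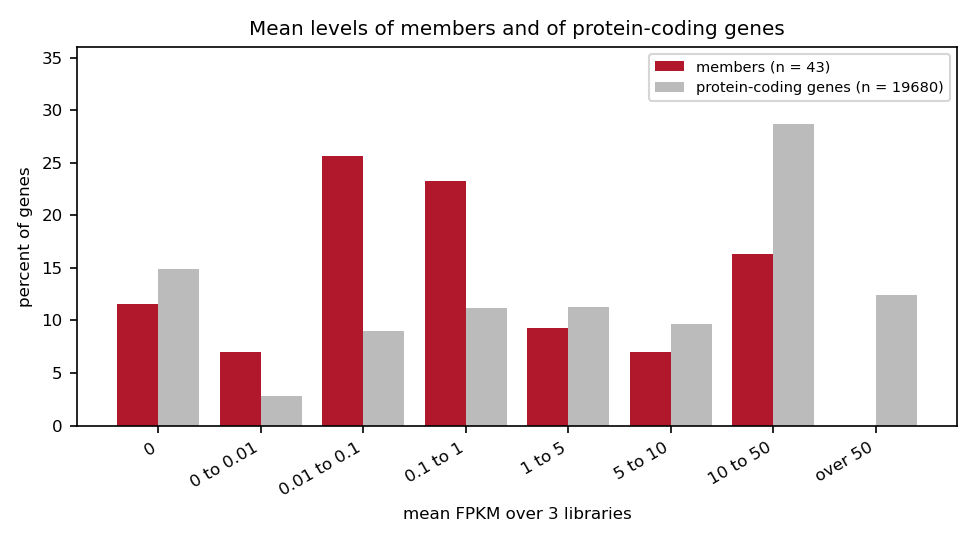
Share of genes, in percent, in each range of mean FPKM over 3 libraries, for the 43 cadherin superfamily members and for 19680 protein-coding genes. Members are spread over the ranges below 1 FPKM, with 25.6% at 0.01 to 0.1 FPKM, and none lies above 50 FPKM.

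The type I classical cadherins were represented almost wholly by CDH2. CDH2, N-cadherin, the classical cadherin of neural and mesenchymal cells (chromosome 18, 27950966 to 28177446), was the highest gene of the set, with 48.7, 47.3 and 49.1 FPKM in replicates 1, 2 and 3. The libraries lay within a coefficient of variation of 1.99%, and the log2 level over 1 FPKM was 5.46 (SE 0.0658, limma adjusted p = 2.99e-05). CDH2 held 95.5 ± 1.11% of the summed FPKM of the 5 type I genes, 60.4 ± 1.03% of that of all 18 classical cadherins and 25.7 ± 0.271% of that of all 43 members (SD, n = 3). An antisense gene that shares 136 exonic bases with it, AC110015.1, was listed at 6.94 FPKM, well under CDH2.

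CDH1, E-cadherin, the classical cadherin of epithelia (chromosome 16, 68737225 to 68835548), had 0.249, 0.666 and 0.321 FPKM. It was low in every flask, with replicate 2 the highest, and an estimated 25, 89 and 65 reads carried these values. CDH1 made up 0.515 ± 0.281% of the summed FPKM of classical cadherins. Its log2 distance from 1 FPKM was -1.19 (SE 0.275, limma adjusted p = 0.0226), and the call was lost without replicate 1 (adjusted p = 0.0756) or without replicate 3 (adjusted p = 0.0951). The neighbouring gene CDH3, P-cadherin of basal epithelia and placenta, lies 14.6 kb before CDH1 with no coding gene between them, and had 1.38, 1.90 and 1.58 FPKM. CDH3 was above CDH1 in every library and was called above 1 FPKM at a log2 level of 0.63 (SE 0.116, limma adjusted p = 0.0119). That call was lost without replicate 3 (adjusted p = 0.0611) and after rescaling to TPM (adjusted p = 0.184).

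CDH4, R-cadherin, first described in retina, had 0.051, 0.144 and 0.072 FPKM, and CDH15, M-cadherin of muscle, had 0.097, 0.146 and 0.170 FPKM. Both were called below. Within each library CDH2 exceeded CDH1 by 7.13, 5.95 and 6.87 log2 units (mean 6.65 ± 0.62), CDH3 by 4.83 ± 0.24 and CDH4 by 8.03 ± 0.38 (SD, n = 3, on the log2(FPKM + 0.1) scale). CDH2 was therefore higher than these 3 relatives in all libraries by many times the spread, although an exact sign-flip test (two-sided) with 3 libraries cannot give a p under 0.25.

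Markers of the cells known for these cadherins were measured beside them. Here and below, counts of markers called above are to be read against 70.6% of protein-coding genes tested. Of 12 epithelial markers, 2 were called above, and their summed level was 8.34, 8.12 and 7.88 FPKM in replicates 1, 2 and 3. The 2 were OCLN at 2.81 FPKM and CLDN4 at 1.55 FPKM (limma adjusted p = 0.0305), EPCAM at 1.61 FPKM was called neither, and KRT5, GRHL2 and ESRP1 were listed at 0. The part of these genes' cells in the CDH1 values was not tested. Of 9 skeletal muscle markers, none was called above, MYH3 led at 0.533 FPKM, and MYF5 and MYF6 were listed at 0.

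**Figure D2:**
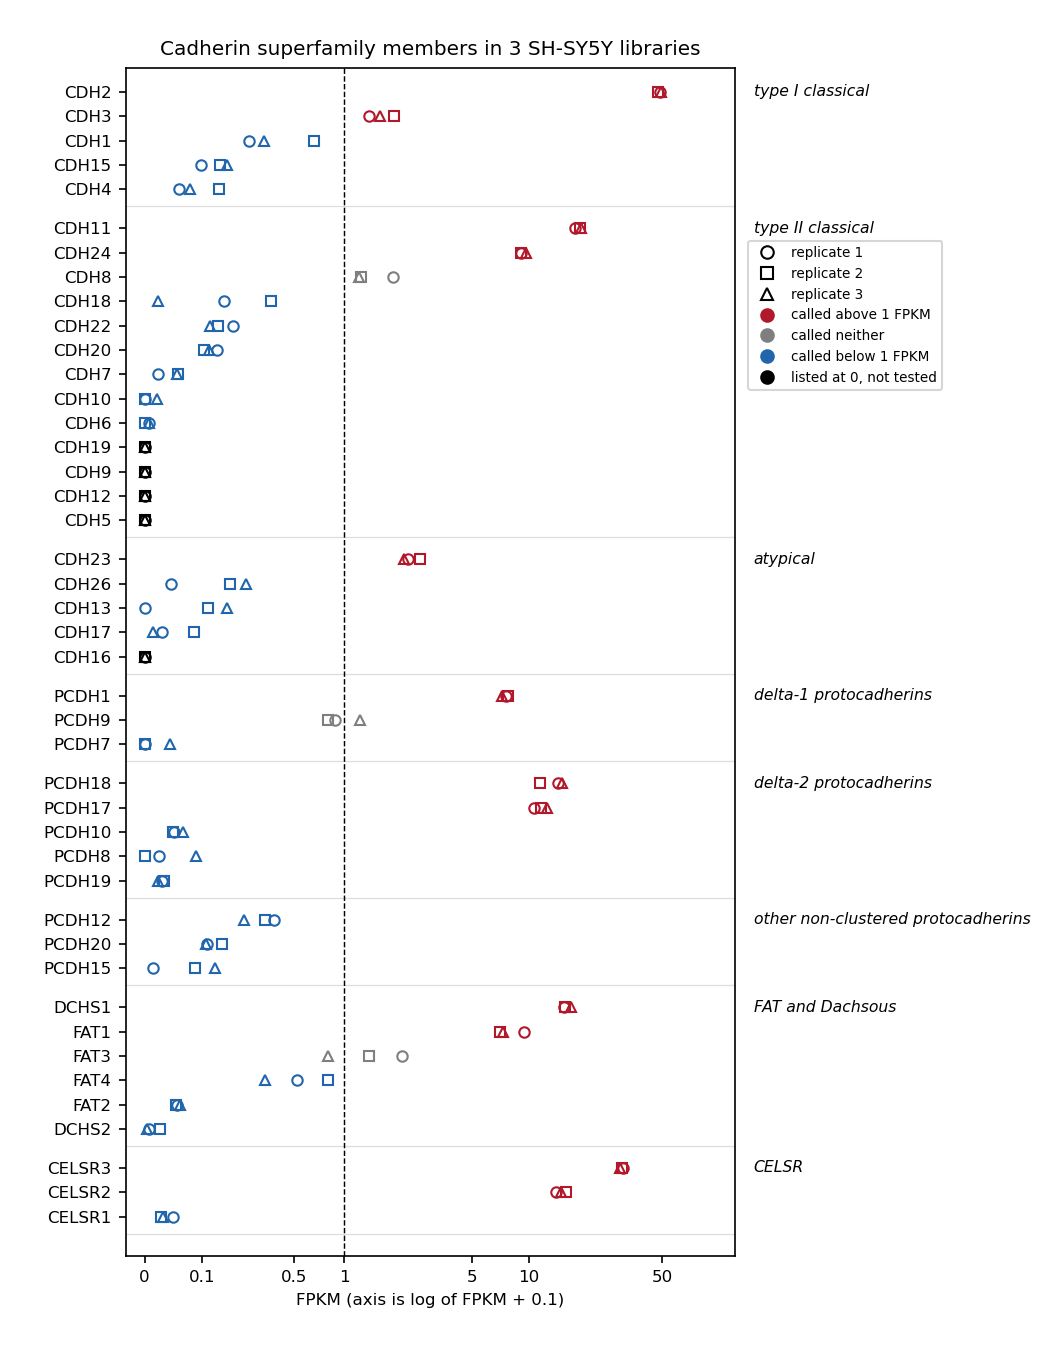
FPKM of each of the 43 members in replicates 1, 2 and 3 (marker shape), grouped by subfamily, on an axis of log(FPKM + 0.1), coloured by the limma call against 1 FPKM (dashed line). CDH2 and CELSR3 stand highest, with all 3 libraries close together, and most other members lie to the left of the line.

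The type II classical cadherins were likewise held by few genes. CDH11, the cadherin of mesenchyme and bone-forming cells (chromosome 16, 64943753 to 65126112), had 17.5, 18.6 and 18.7 FPKM. CDH24 (chromosome 14, 23047062 to 23057538) had 9.07, 9.10 and 9.63 FPKM. Both were steady between flasks and were called above, at log2 levels of 4.06 (SE 0.0692, limma adjusted p = 3.32e-05) and 3.09 (SE 0.0681, limma adjusted p = 4.79e-05). Together they held 93.4 ± 1.54% of the summed FPKM of the 13 type II genes, and with CDH2 they held 94.8 ± 0.705% of that of all 18 classical cadherins (SD, n = 3). CDH2 exceeded CDH11 by 1.40 ± 0.07 log2 units within libraries.

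CDH11 is also a marker of fibroblast-like and bone-forming cells, so such markers were set beside it. Of 10 fibroblast or bone markers, 5 were called above, with a summed level of 121, 111 and 110 FPKM in replicates 1, 2 and 3. These were THY1 at 60.1 FPKM, PDGFRB at 29.8, DCN at 14.7, LUM at 3.95 and COL1A1 at 3.79 FPKM. COL1A2 at 0.921 and COL3A1 at 0.919 FPKM were called neither. The bone factors SP7 at 0.112 FPKM and RUNX2 at 0.00567 FPKM were called below, and POSTN was listed at 0. The part of such cells in the CDH11 level was not tested. In RNA from whole cultures, fewer cells of a type and less RNA per cell cannot be told apart.

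CDH8, a type II cadherin of brain circuits, had 1.87, 1.25 and 1.22 FPKM. It lay above 1 FPKM in every flask but was called neither (log2 0.46, SE 0.160, limma adjusted p = 0.0633), with replicate 1 apart from the others. CDH8 is the neighbour of CDH11 on the long arm of chromosome 16, with 2906.7 kb and no coding gene between them, and CDH8 minus CDH11 was -3.16, -3.80 and -3.83 log2 units in replicates 1, 2 and 3.

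The other type II genes were at the low end. CDH18 had 0.160, 0.355 and 0.018 FPKM, from an estimated 11, 34 and 3 reads, the widest log2 spread of any of the 38 tested members (SD 0.978). CDH22 had 0.119 to 0.190 FPKM and CDH20 0.105 to 0.139 FPKM, both in every library over the 3-read floor, and CDH7 had 0.017 to 0.049 FPKM. CDH10 was listed above 0 only in replicate 3, at 0.016 FPKM. CDH6, a cadherin of kidney and of early neural crest in chick and mouse, had 0.006 FPKM in replicates 1 and 3 and was listed at 0 in replicate 2. These 6 genes were called below. CDH6 and CDH10 stayed at or under 3 reads in all libraries, so at this depth their difference from genes listed at 0 was not detectable.

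The type II genes listed at 0 include 2 that define a cell type. CDH5 is VE-cadherin of blood vessel endothelium, and none of 10 endothelial markers was called above, with CLDN5 highest at 0.289 FPKM and ERG listed at 0. CDH19 belongs to Schwann cell precursors. Of 9 Schwann cell or glial markers, GFAP was called above, at 5.75, 2.96 and 2.14 FPKM in replicates 1, 2 and 3. SOX10 had 0.0113 FPKM, and PMP2 and FOXD3 were listed at 0. CDH9 and CDH12 are brain cadherins. For these 4 genes 3 reads would have given 0.0112 to 0.0484 FPKM, depending on gene and library.

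The atypical cadherins, which lack the catenin-binding tail of the classical ones or differ from it, were low apart from CDH23. CDH23, a component of the tip links of sensory hair cells, had 2.28, 2.64 and 2.16 FPKM and was called above (log2 1.16, SE 0.0918, limma adjusted p = 0.00115). PCDH15, its partner in the tip link, had 0.011, 0.083 and 0.134 FPKM and was called below. CDH23 exceeded PCDH15 by 4.42, 3.91 and 3.27 log2 units in replicates 1, 2 and 3, a gap of 3.87 ± 0.57 (SD, n = 3). Of 9 hair cell markers only TMIE was called above, at 2.37 FPKM, and POU4F3, the hair cell transcription factor, had 0.0157 FPKM.

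CDH13, a cadherin held in the membrane by a lipid anchor, was listed at 0 in replicate 1 and had 0.114 and 0.168 FPKM in replicates 2 and 3. It shares 141 exonic bases with the opposite-strand gene AC009119.1, which was higher at 0.578 FPKM. CDH26 had 0.038, 0.180 and 0.239 FPKM, and CDH17, a cadherin of liver and intestine, had 0.023, 0.080 and 0.011 FPKM. All 3 were called below, and their values rest on an estimated 0 to 31 reads per library. CDH16, of kidney, was listed at 0. None of 8 kidney or intestine markers was called above, with CDX1 highest at 0.583 FPKM and 4 of them, AQP2, UMOD, CDX2 and FABP2, listed at 0.

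Among the delta-1 protocadherins each gene had its own level. PCDH1 (chromosome 5, 141853111 to 141879246) had 7.60, 7.77 and 7.17 FPKM and was called above (log2 2.79, SE 0.0698, limma adjusted p = 6e-05). PCDH9 had 0.886, 0.803 and 1.24 FPKM, on both sides of the level, and was called neither (limma adjusted p = 0.747). PCDH7 was listed at 0 in replicates 1 and 2 and had 0.035 FPKM in replicate 3, and it was called below.

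The remaining non-clustered protocadherins were called below. PCDH12, found in vascular endothelium, had 0.372, 0.324 and 0.230 FPKM. It lies 64.3 kb from PCDH1 and overlaps RNF14 on the opposite strand by 108 exonic bases, and RNF14 was far higher, at 27.7 FPKM. PCDH20 had 0.111, 0.152 and 0.110 FPKM. It shares 4577 bases on the same strand with the coding gene AL592490.1, which was listed at 0, so how the counting split their reads is uncertain.

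The FAT and Dachsous genes, giant cadherins of which FAT4 and DCHS1 are a known receptor and ligand pair, ranged from DCHS1 and FAT1, which were called above, to DCHS2, the lowest of the 6. DCHS1 (chromosome 11, 6621323 to 6655854) had 15.3, 15.6 and 16.7 FPKM and was called above (log2 3.86, SE 0.0712, limma adjusted p = 3.69e-05). FAT4 had 0.527, 0.800 and 0.325 FPKM. DCHS1 was thus higher than FAT4 in all 3 flasks, and FAT4 minus DCHS1 was -4.68 ± 0.59 log2 units (SD, n = 3). FAT4 was called below 1 FPKM narrowly (limma adjusted p = 0.0470), and it was no longer called without replicate 1 (adjusted p = 0.141) or without replicate 3 (adjusted p = 0.105). DCHS2, the other Dachsous gene, had 0.005, 0.020 and 0.003 FPKM, which put DCHS1 above it by 7.19 ± 0.16 log2 units.

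The antisense gene AC091564.4 overlaps 820 exonic bases of DCHS1 and was higher, at 24.3 ± 1.28 FPKM, and AC091564.5 overlaps a further 188 bases at 5.08 ± 0.443 FPKM (SD, n = 3). Reads of DCHS1 and of these genes may likewise not have been told apart.

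FAT1, an actin-regulating cadherin (chromosome 4, 186587783 to 186726722), had 9.38, 7.07 and 7.32 FPKM, with replicate 1 the highest, and was called above (log2 2.85, SE 0.119, limma adjusted p = 0.000199). FAT3, a cadherin that shapes neurons in mouse retina, had 2.11, 1.38 and 0.802 FPKM. It spanned the level and was called neither (limma adjusted p = 0.30), with a log2 SD of 0.646 beside a median of 0.245 over 875 protein-coding genes within 1.5 times of its mean. FAT2 had 0.048, 0.045 and 0.053 FPKM and was called below. The estimated reads behind FAT3 were 853, 740 and 657 in replicates 1, 2 and 3.

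The CELSR genes code for multi-pass receptors with cadherin repeats, which organise planar polarity and axon tracts. CELSR3 (chromosome 3, 48636469 to 48662915), the member of postmitotic neurons, had 31.2, 30.9 and 30.2 FPKM and was the second-highest gene of the set. CELSR2 (chromosome 1, 109250019 to 109275750) had 13.9, 15.6 and 14.8 FPKM. Both were called above, at log2 levels of 4.81 (SE 0.0655) and 3.75 (SE 0.0743), with limma adjusted p of 2.99e-05 and 4.08e-05. CELSR1, the member of neural progenitors and epithelia in mouse, had 0.041, 0.022 and 0.025 FPKM from an estimated 7 to 12 reads, and was called below.

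CELSR3 held 67.6 ± 1.40% of the summed FPKM of the 3 genes. It exceeded CELSR1 by 7.90 ± 0.10 log2 units and CELSR2 minus CELSR3 was -1.06 ± 0.09, each with 1 sign in every library (SD, n = 3). CELSR was the subfamily with the highest median, 14.8 FPKM, against 0.99 for FAT and Dachsous, 0.975 for delta-1, 0.412 for type I, 0.124 for the remaining protocadherins, 0.094 for the atypical, 0.0467 for delta-2 and 0.038 for type II.

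Ordered by level, CDH2 came first in every library, followed by CELSR3 and then CDH11. Each stood above the next by more than the spread between flasks, with gaps of 0.65 ± 0.04, 0.75 ± 0.08 and 0.20 ± 0.05 log2 units. Further down, DCHS1 and CELSR2, CELSR2 and PCDH18, and PCDH18 and PCDH17 changed places between libraries, as FAT1 did with CDH24 and with PCDH1. From PCDH1 to CDH23 the level dropped by 1.63 ± 0.10 log2 units in the same order in all libraries. The 10 highest genes held 94.4 ± 0.615% of the summed FPKM of the 43 members (SD, n = 3).

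The 10 highest genes varied little between flasks. Their median log2 SD was 0.063, beside 0.098 over 6458 protein-coding genes in the same range of levels. Those genes were matched by FPKM and not by length. The longest coding transcript had a median of 5906 bases over all 43 members and 2685 bases over protein-coding genes. Longer transcripts give more reads at the same FPKM, and the part of this in the spread was not tested. FAT1 and PCDH18 had the widest spread of the 10, with log2 SDs of 0.22 and 0.206 beside medians of 0.119 and 0.104 in protein-coding genes within 1.5 times of their means. FAT1 was high in replicate 1 and PCDH18 low in replicate 2.

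Of 27 pairs of related genes compared within libraries, 24 between members and 3 between catenins, 25 had 1 sign in every library. Each of these has an exact two-sided sign-flip p of 0.25, the smallest that 3 libraries allow, and 0.27 after Benjamini-Hochberg adjustment over the 27 pairs, so none passed a threshold. The pairs without 1 sign were CDH6 against CDH9 and CDH10 against CDH12, all at or under 3 reads. The smallest of the others was PCDH19 minus PCDH10, at -0.25 ± 0.15 log2 units (SD, n = 3).

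**Figure D3:**
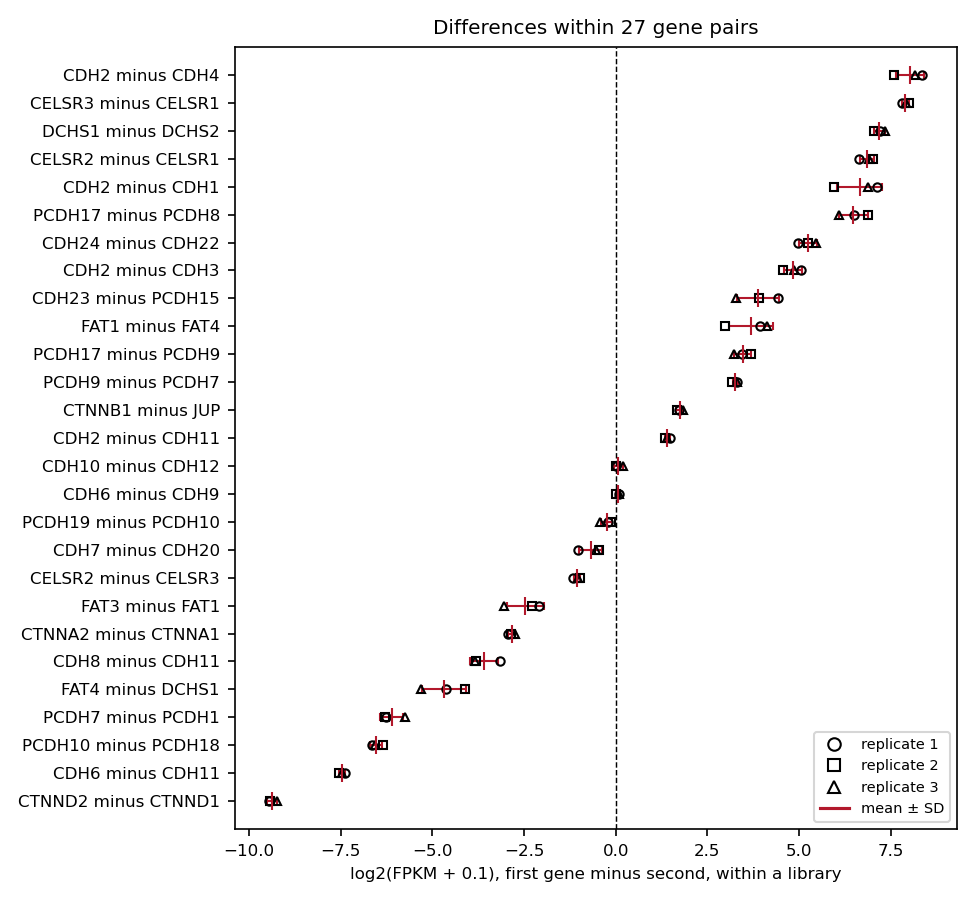
Difference of log2(FPKM + 0.1) between the first and the second gene of each of 27 pairs, with a point per library and a bar for the mean. Most pairs lie far from 0 with the 3 libraries close together, between -9.37 for CTNND2 minus CTNND1 and 8.03 for CDH2 minus CDH4, and the pairs CDH6 minus CDH9 and CDH10 minus CDH12 lie near 0.

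The members called above lay scattered over chromosome arms. The 5 members on the short arm of chromosome 5, CDH18, CDH12, CDH10, CDH9 and CDH6, all type II cadherins, summed to 0.187 FPKM and none was called above. Of these, CDH12 and CDH9 were listed at 0 and not tested. On the long arm of chromosome 16, CDH11 and CDH3 were called above among 8 members, and CDH8, CDH5, CDH16, CDH1, CDH13 and CDH15 lie before, between or after them. The long arm of chromosome 18 had CDH2 above and CDH20, CDH7 and CDH19 low or listed at 0. Neighbouring protocadherins differed too, as PCDH18 was high while PCDH10, 4310.3 kb away on the long arm of chromosome 4, was low, and on the long arm of chromosome 13 PCDH17 alone of 4 members was called above. None of the 3 members on the long arm of chromosome 20 was called above. These are counts over a few genes and were not tested. They are to be read against the 31.6% of all members tested and 70.6% of protein-coding genes tested that were called above. Shares over all genes of an arm are not given here.

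**Figure D4:**
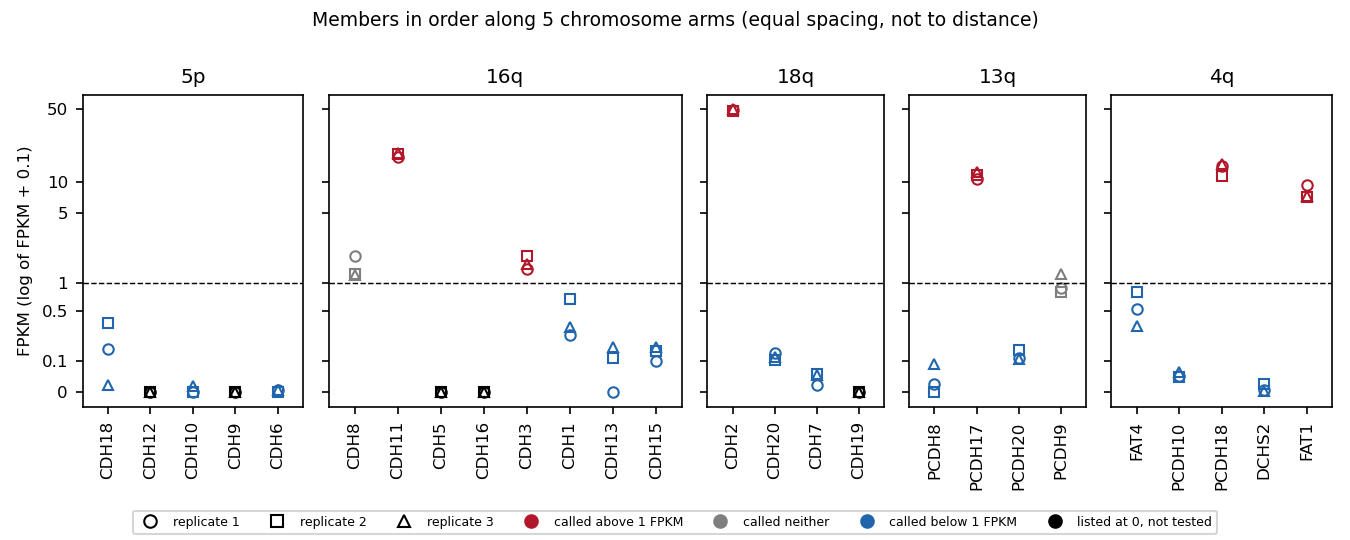
FPKM in replicates 1, 2 and 3 (marker shape) of the members on 5 chromosome arms, 5p, 16q, 18q, 13q and 4q. Members stand in order along each arm at equal spacing. The axis is log(FPKM + 0.1), and colours give the limma call against 1 FPKM (dashed line). The 5 genes of 5p all lie below the level, while each other arm drawn holds at least 1 gene above it. The arms 5q and 20q, with 3 members each, are not drawn.

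Genes known to act with cadherins were counted in lists, to be read against the 70.6% of protein-coding genes tested that were called above. Of 10 catenins, which link cadherins to actin, 8 were called above, with a median of 25.1 FPKM. CTNNA1, alpha-catenin, reached 191 ± 6.14 FPKM, CTNNB1, beta-catenin, 79.3 ± 4.62 and CTNND1, p120-catenin, 68.9 ± 1.18 FPKM. These exceed CDH2 at 48.3 ± 0.962 FPKM (SD, n = 3). The neural alpha-catenin CTNNA2 reached 26.6 FPKM, and CTNNA2 minus CTNNA1 was -2.84 ± 0.10 log2 units, while CTNNB1 exceeded its relative JUP by 1.74 ± 0.09. CTNND2, the neural delta-catenin, had 0.00433 FPKM and CTNNA3, alpha-T-catenin of heart, 0.082 FPKM, and both were called below.

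Of 12 adherens junction linkers 11 were called above, led by AFDN (41.2 FPKM), ABLIM1 (36.6) and PARD3 (27.3). NECTIN4 at 0.973 FPKM was called neither. The WAVE complex, the actin nucleation regulator that delta-2 protocadherins bind, had 9 of 11 genes above, led by ABI2 (109 FPKM), CYFIP1 (81.8) and BRK1 (77.7). NCKAP1L, its blood-cell subunit, was called below at 0.127 FPKM and ABI3 was listed at 0.

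Of 13 planar cell polarity genes, the partners of CELSR proteins, 11 were called above, led by PTK7 (64.8 FPKM), VANGL2 (49.8) and DVL3 (42.5). PRICKLE3 at 0.0667 and PRICKLE2 at 0.0153 FPKM were called below. Of 10 FAT and Dachsous partners 9 were called above, led by ENAH (186 FPKM), EVL (168) and ATN1 (57.3). FJX1, the kinase that tunes FAT4 and DCHS1 binding, was among them at 7.61 FPKM, and LIX1 at 0.01 FPKM was called below. Of 13 proteases that mature or cut cadherins 12 were called above, led by APH1A (98.1 FPKM), ADAM10 (82.7), which sheds CDH1 and CDH2, and NCSTN (77.5), with PCSK5 below at 0.0127 FPKM.

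Of the known repressors of CDH1 transcription, TWIST1, TCF3, TCF4, ZEB1 and ZEB2 lay above the protein-coding median of 5.4 FPKM. SNAI1, SNAI2 and TWIST2 lay under it. TWIST1 reached 220 FPKM, TCF3 168, TCF4 157, ZEB1 40.7, ZEB2 23.7, SNAI1 5.12 and SNAI2 3.78 FPKM, so 7 of 8 were called above, and TWIST2 at 0.0223 FPKM was called below. Their part in the CDH1 level was not tested.

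The desmosomal cadherins, adhesion molecules of epithelia and heart, were all low. None of 7 was called above, 6 were called below with DSG2 highest at 0.0203 FPKM, and DSG4 was listed at 0. Of 10 other genes with cadherin repeats 7 were called above, a share near the 70.6% of protein-coding genes. CLSTN3, a calsyntenin of synapses, reached 93.7 FPKM, the receptor kinase gene RET 73.8 FPKM and CLSTN1 47.6 FPKM, while CDHR5, PCDH11X and CDHR4 were called below at 0.297, 0.0393 and 0.0223 FPKM.

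**Figure D5:**
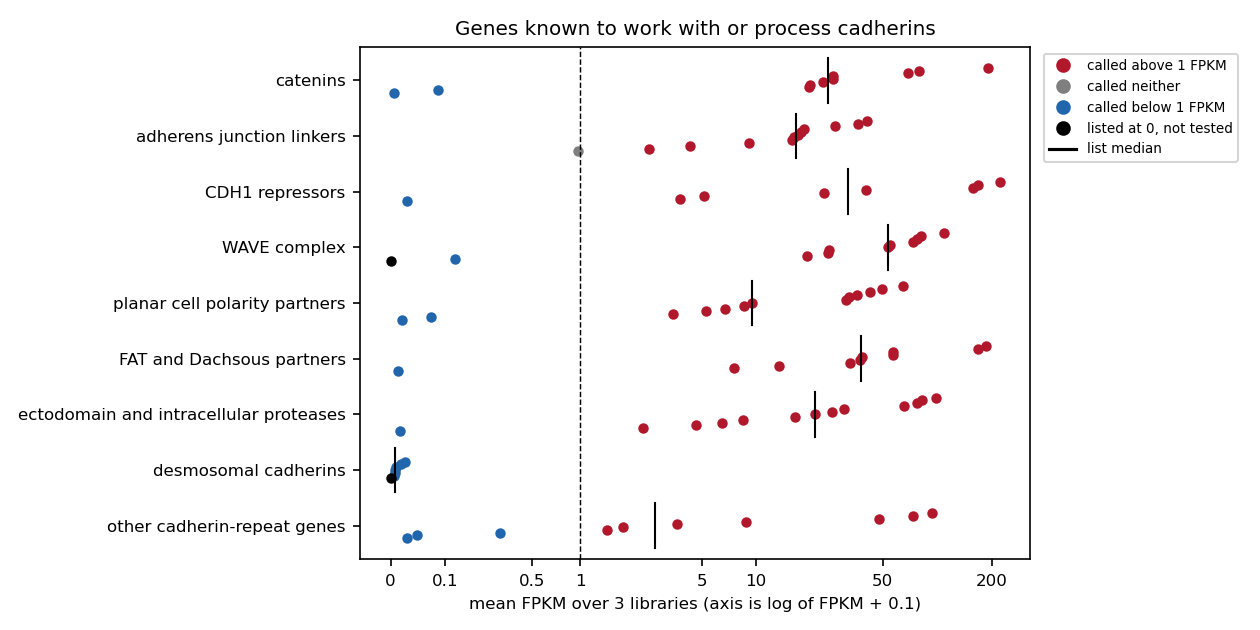
Mean FPKM over 3 libraries of each gene in 9 lists of genes that work with, process or resemble the cadherins, on an axis of log(FPKM + 0.1), coloured by the limma call against 1 FPKM (dashed line), with the list median as a bar. The desmosomal cadherins lie at the left with a median of 0.00533 FPKM, and the other lists have medians of 2.72 to 53.8 FPKM.

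Several genes in these lists overlap a higher gene on the opposite strand, by which their values may be touched, namely ADAM17 (IAH1, 95.0 FPKM), NCSTN (COPA, 82.3 FPKM), PRICKLE1 (PPHLN1, 59.5 FPKM), VCL (AP3M1, 37.2 FPKM), ANKRD6 (LYRM2, 24.2 FPKM) and CDHR2 (GPRIN1, 29.7 FPKM). FAT2 likewise overlaps AC011337.1, listed at 0.0873 FPKM.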

How the data were processed

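The authors deposited 1 table of FPKM per gene and library, by Ensembl identifier. Cufflinks 2.2.1, TopHat2 2.1.1, FastQC 0.10.1 and bcl2fastq are listed with hg38, per the submitters' processing notes, and settings, annotation release and strandedness of the counting were not given in the sources used here. Of 60660 identifiers, 57046 matched GENCODE release 29 and 3614 did not. A name shared by several identifiers (154 names) took the highest mean, leaving 59152 names.

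Because FPKM are no counts, a linear model was used. With limma 3.58.1 (R 4.3.3), log2(FPKM + 0.1) of the 31736 genes that exceeded 0 in any library was tested two-sided against log2 of 1 FPKM plus the same pseudocount, with an intercept alone and Benjamini-Hochberg adjustment over all of them. Distances of low genes from the level are understated on this scale. Tested on simulated data with all 31736 genes, the fit placed 67% of genes 0.5 log2 from the level, 87% at 1 log2 and 95% at 2 log2 on the right side, and made calls for 9% of genes placed on the level itself. Pairs were compared within libraries with exact sign-flip tests. Other steps used matplotlib 3.10.9, scipy 1.17.1, pandas 2.3.3 and numpy 2.4.6 in Python 3.11.15.

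Depth was estimated from steps of FPKM times effective length (exonic bases less an assumed 200), with 96.7%, 97.0% and 96.7% of 3475, 3432 and 3124 low values within 0.1 of a whole read, where even spacing gives 20%. Values summed to 1389791, 1457403 and 1375659 FPKM.

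The text names every member and pair gene, the 3 highest and the lowest of each list of partner genes, the highest 2 of each list of cell type markers, opposite-strand genes higher than a named gene, and genes making up a count of 5 or fewer. Some genes named by this rule are not reported here. Other partner and marker genes named, and AC110015.1, AC091564.5 and AL592490.1, were chosen after their values were seen. Members, lists and pairs were chosen with earlier results of these data known. Promoters came from RefSeq on GRCh38.p14, with entries for 26 of 43 members. Alternatives were pseudocounts of 1 and 0.01, TPM and median-ratio rescaling, levels of 0.5 and 5 FPKM, other filters, a prior trend, no test, and each library left out.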

Additional observations from a re-analysis of the deposited data

How the results depend on the processing

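The count of members called above 1 FPKM (12) ranged from 10 at a level of 5 FPKM to 15 at 0.5 FPKM, and from 11 to 12 with a library left out. The count below (23) was 20 at a level of 0.5 FPKM and 28 at 5 FPKM. It was 26 without a filter and 24 under TPM, and ranged from 19 to 23 with a library left out. When genes needed a mean of 0.1 FPKM to be tested it was 8, since that filter removes low genes. Rescaling to TPM lowered log2 values by 0.47, 0.54 and 0.46 in replicates 1, 2 and 3, and left 11 members above. Type I cadherins above (2) and members above on 16q (2) were 1 each under TPM and at 5 FPKM, and ranged from 1 to 2 with a library left out, the 1 being without replicate 3. Atypical cadherins above (1) were 0 at 5 FPKM. Delta-1 protocadherins above and members above on 13q (1 each) were 2 each at 0.5 FPKM. At 5 FPKM the genes below were 2 junction linkers (0 as reported), 2 CDH1 repressors (1), 2 proteases (1) and 6 other cadherin-repeat genes (3), a list with 4 others above (7). With the mean filter, 0 catenins (2), 0 CDH1 repressors (1), 0 planar polarity partners (2), 0 FAT partners (1), 0 proteases (1), 0 desmosomal cadherins (6) and 1 other cadherin-repeat gene (3) were below. Without any filter 2 WAVE genes (1) were below, and with a library left out 1 to 2 catenins were. CDH10 minus CDH12 ranged from 0 to 0.11 with a library left out, being 0 without replicate 3, the only library with CDH10 above 0. Signs turned for genes near the level: CDH23 (-1.06), CDH3 (-1.58), CDH8 (-1.75) and FAT3 (-1.83) at 5 FPKM, FAT3 under TPM (-0.07), PCDH9 (0.82) and FAT4 (0.05) at 0.5 FPKM, while PCDH9 ranged from -0.22 to 0.06 with a library left out (0.06 without replicate 2). FAT4 was also not called with a pseudocount of 0.01 (limma adjusted p = 0.0698), without a filter (0.0979), with the mean filter (0.0527) or with a prior trend (0.053). CDH1 was not called without a filter (limma adjusted p = 0.0583) or at 0.5 FPKM (0.352), nor CDH18 with a pseudocount of 0.01 (0.0549), at 0.5 FPKM (0.0628) or without replicate 1 (0.0634). CDH8 (limma adjusted p = 0.0039) and FAT3 (0.0257) were called above at 0.5 FPKM, and PCDH9 below under TPM (0.0461) and at 5 FPKM (0.000616). The causes of changes other than those of level or filter were not tested. Depth limits the 7 members at or under 3 reads in all libraries. No paired comparison of conditions was possible because there is 1 group and no second condition.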

Other observations

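Members differ widely in the length of genome they span. The 12 members called above 1 FPKM spanned a median of 60.5 kb and at most 419 kb, against a median of 140 kb over the 31 others. No gene called above spanned over 500 kb, against 7 of the 31 others, which reach 1825.2 kb in PCDH15. The 31 others include the 5 members not tested, and CDH12 of these is among the 7. The protein-coding genes that follow are tested genes only. Over all protein-coding genes tested, 57.5% of 285 genes spanning over 500 kb were called above, and the median span was 34.1 kb for those called above and 25.2 kb for those not called above. The genomic span was compared after the values were seen, on the same data, and no test was made.

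The longest coding transcript of the members had a median of 5906 bases, against 2685 bases for protein-coding genes. Of the 23 members called below, 13 lay over 3 reads in all libraries.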
